A study of Mus musculus with 11 samples.

Results

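The 10 genes described here encode enzymes of glycine, proline and creatine metabolism. Their RNA was measured in the pancreas and epididymal adipose tissue of control mice and of mice with obesity-related alcohol-induced acute pancreatitis (OA-AP). Gatm and Gamt make creatine, Gldc, Amt and Gcsh belong to the glycine cleavage system, Tdh and Gcat turn threonine into glycine, Aldh18a1 and Pycr1 make proline, and Aldh1l2 oxidizes folate in mitochondria. They were picked by gene symbol when their counts in these libraries were already known, so their levels in both groups and tissues chose them, and these levels are given with their log2 fold changes as a description with no test. They are 10 of the 54532 genes in the pancreas table and of the 46078 genes in the adipose table. All libraries came from wild type male C57BL/6J mice aged 16 weeks: 2 control and 3 OA-AP pancreas libraries, and 3 control and 3 OA-AP adipose libraries. From an age of 4 to 5 weeks, mice were fed for 12 weeks, the control group on chow of 10 kcal% fat and the OA-AP group on a high-fat diet of 60 kcal% fat. OA-AP was induced by 2 intraperitoneal injections of ethanol (2 g/kg) 1 h apart, controls were injected with saline, and tissues were taken 12 h after the first injection. High-fat feeding, ethanol and pancreatitis cannot be told apart in these groups, and none of the sequenced mice had been given CQCQD, the herbal decoction of the study.

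Creatine synthesis draws on arginine, glycine and a methyl group of S-adenosylmethionine, and the exocrine pancreas, with kidney and liver, is a known site of it. The glycine cleavage system of mitochondria splits glycine into carbon dioxide, ammonia and a methylene group carried by folate, while proline is made from glutamate through pyrroline carboxylate. Acinar cells secrete large amounts of digestive enzymes and have a high demand for amino acids.

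Total counts in the pancreas were 14716716 and 14380578 for the control group and 14465769, 14188832 and 17238919 for the OA-AP group. In adipose tissue they were 25840279, 22576100 and 27928097 for the control group and 20825177, 21404197 and 20911383 for the OA-AP group. Levels are given in CPM, that is, counts per 1000000 counts of the library total times edgeR's TMM factor. For this scale the library total was taken over the genes that passed the filter on low counts, not over all counts listed above. The TMM factors of the pancreas were 0.793 and 0.698 for control and 1.32, 1.23 and 1.11 for OA-AP mice, and those of adipose tissue 1.05, 1.06 and 1.05 for control and 0.927, 0.973 and 0.948 for OA-AP mice. The tissue labels were checked against marker genes. A list of 32 acinar markers held a share of 72.8% and 74.7% in the control pancreas libraries against 55.6%, 57.6% and 58.2% in the OA-AP pancreas libraries, with Ctrb1 the most abundant. Each of 10 adipocyte markers had counts in every adipose library, and together they took 4.61%, 4.47% and 4.78% of the control counts and 4.11%, 3.39% and 3.70% of the OA-AP counts, with Fabp4 the most abundant. Adipose control replicate 2 stood apart: acinar markers took 0.948% of its counts, against 0.00157% and 0.00110% in the other controls, and 0.00110%, 0.00179% and 0.00201% for OA-AP mice. None of the 32 acinar markers was at 0 in that library, while 15 to 17 were in the other controls and 10 to 19 in the OA-AP libraries. These are bulk samples, so fewer cells of a type and less RNA per cell cannot be told apart. Replicates are separate samples by their labels alone, and p-values measure the spread between these samples.

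In the pancreas, 8 of the 9 members that passed the filter on low counts were lower in OA-AP: Gatm, Gamt, Gcsh, Tdh, Gcat, Aldh18a1, Pycr1 and Aldh1l2. Their control means were 2.71-fold (Gcat) to 56.4-fold (Tdh) the OA-AP means, while the Amt levels of the groups overlapped and Gldc had 0 counts in both control libraries. In this tissue 29.8% of the 12884 genes tested with edgeR were called, at an adjusted p under 0.05 and a change of at least 1.5-fold, 16.2% higher and 13.5% lower. For the same 8 members the groups did not overlap, as held for 29.4% of all tested genes in the lower direction and 32.9% in the higher direction. Because these values chose the members, nothing is read from the counts. The median log2 fold change of the 9 members was −2.34 and that over all tested genes 0.04.

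In adipose tissue the members split. Of the 9 that passed the filter, the groups did not overlap for Gldc, Gcsh and Aldh18a1, which were higher in OA-AP, or for Gatm, which was lower, as held for 26.4% and 26.0% of all tested genes in these directions. Among the 15839 genes tested, 25.1% were called, 12.1% higher and 13.0% lower. Here too the values had chosen the members and nothing is read from the counts. The median log2 fold change of the 9 members was −0.39 and that over all tested genes −0.01. Whether the change of a gene differed between the tissues was not tested.

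The size of every pancreas value depended on the scaling. Where library totals alone replaced TMM factors, the median over all tested genes moved on the log2 scale by 0.71 in the pancreas, from 0.04 to 0.75, and by −0.15 in adipose tissue, from −0.01 to −0.17. The share of called genes that were higher in OA-AP went from 54.5% to 92.0% in the pancreas and from 48.1% to 32.1% in adipose tissue. The same 8 members were lower in the pancreas with library totals, with a median of −1.62, and Amt turned from −0.20 to 0.52. In adipose tissue the member median was then −0.54 and no member changed direction. With library totals the adipose groups overlapped for Gcsh, and no longer overlapped for Gamt and Gcat, which were lower in OA-AP.

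**Figure D1:**
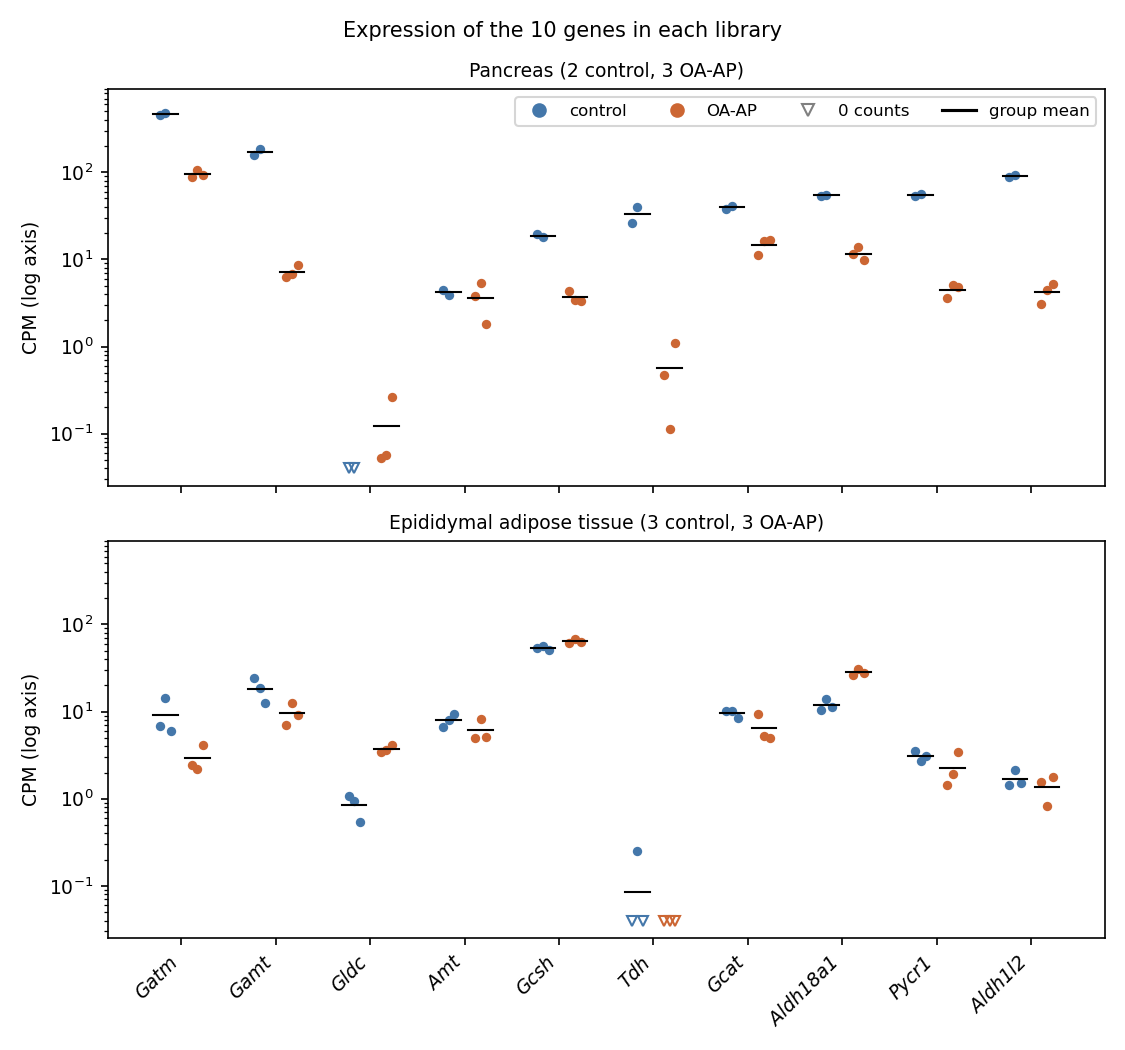
CPM of the 10 members in each library, on a log axis, in the pancreas and in epididymal adipose tissue; blue points are control and orange points OA-AP libraries, open triangles mark libraries with 0 counts, and black lines are group means. In the pancreas the orange points of 8 genes lie below both blue points, from Gcat, 2.71-fold lower by its means, to Tdh, 56.4-fold lower. With library totals alone the log2 fold changes of these 2 were −0.74 and −5.11, against −1.44 and −5.82.

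Creatine synthesis begins with Gatm (ENSMUSG00000027199, chr2:122594467-122611303 of GRCm38), the arginine and glycine amidinotransferase that makes guanidinoacetate. It was measured at 452 and 472 CPM in the control pancreas and at 88.5, 106 and 93.2 CPM in the OA-AP libraries. Both control libraries lay far above all 3 OA-AP libraries, and the spread within each group was small beside the gap. The means were 462 ± 14.4 CPM (SD, n = 2) in control and 95.9 ± 9.17 CPM (SD, n = 3) in OA-AP mice, a log2 fold change of −2.27 with a standard error (SE) of 0.13. Gamt (ENSMUSG00000020150, chr10:80258151-80261012) methylates guanidinoacetate to creatine. It stood at 158 and 182 CPM in the control pancreas and at 6.20, 6.87 and 8.58 CPM in the OA-AP pancreas, with no overlap and a 23.6-fold difference between the means. Its means were 170.2 ± 16.7 CPM (SD, n = 2) in control and 7.21 ± 1.23 CPM (SD, n = 3) in OA-AP mice, a log2 fold change of −4.56 (SE 0.17). In adipose tissue Gatm measured 6.79, 14.3 and 5.99 CPM in the control and 2.44, 2.21 and 4.14 CPM in the OA-AP libraries. The highest of these values belonged to control replicate 2, the library with acinar counts, and the groups did not overlap. Without that library the control mean of Gatm fell from 9.03 to 6.39 CPM and its log2 fold change from −1.62 (SE 0.41) to −1.12. Adipose Gamt measured 24.1, 18.5 and 12.6 CPM in the control and 7.05, 12.6 and 9.19 CPM in the OA-AP libraries, and OA-AP replicate 2 lay just above control replicate 3. Its log2 fold change was −0.93 (SE 0.29), and with 1 library left out it lay between −1.17 (without OA-AP replicate 2) and −0.68 (without control replicate 1).

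The glycine cleavage system consists of Gldc, which decarboxylates glycine, Gcsh, which carries the remaining aminomethyl group on its lipoyl arm, Amt, which passes the carbon to folate, and Dld, which reoxidizes the carrier. Gldc (ENSMUSG00000024827, chr19:30098449-30175418) had 0 counts in both control pancreas libraries and 1, 1 and 5 counts in the OA-AP libraries. A count of 0 allows up to 3 counts, or 0.257 and 0.299 CPM in these control libraries, so a difference was not detectable at this depth. Such limits cover counting error only. In adipose tissue Gldc was measured at 1.07, 0.932 and 0.545 CPM in the control and 3.42, 3.65 and 4.14 CPM in the OA-AP libraries, from 29, 22 and 16 against 66, 76 and 82 counts. All OA-AP libraries lay above all controls, with a log2 fold change of 2.14 (SE 0.28) and means 4.41-fold apart. Gcsh (ENSMUSG00000034424, chr8:116981810-116993537) went the opposite way in the pancreas, at 19.4 and 18.1 CPM in the control and 4.36, 3.43 and 3.35 CPM in the OA-AP libraries. The groups were separate, at 18.8 ± 0.881 CPM (SD, n = 2) in control and 3.71 ± 0.560 CPM (SD, n = 3) in OA-AP mice, a log2 fold change of −2.34 (SE 0.19). Adipose Gcsh lay at 54.2, 55.8 and 50.3 CPM in the control and 61.9, 68.2 and 62.7 CPM in the OA-AP libraries. It was thus slightly higher in every OA-AP library, a log2 fold change of 0.27 (SE 0.09), and with library totals alone (0.12) the groups overlapped. Amt (ENSMUSG00000032607, chr9:108296853-108302302) had 4.46 and 3.89 CPM in the control pancreas and 3.78, 5.32 and 1.83 CPM in the OA-AP pancreas. OA-AP replicate 2 was the highest and OA-AP replicate 3 the lowest of the 5, so the groups overlapped, and the log2 fold change of −0.20 (SE 0.43) changed sign with library totals alone (0.52), with the replicate number as a block (0.10) and without OA-AP replicate 3 (0.07). In adipose tissue Amt ranged over 6.72, 7.97 and 9.26 CPM in the control and 4.92, 8.22 and 5.10 CPM in the OA-AP libraries, again with overlap. Its log2 fold change there was −0.39 (SE 0.24), and −0.67 without OA-AP replicate 2.

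Threonine is turned into glycine by Tdh, the threonine dehydrogenase, and Gcat, which splits the product with coenzyme A into glycine and acetyl-CoA. Tdh (ENSMUSG00000021953, chr14:63492347-63509092) had 26.1 and 39.4 CPM in the control pancreas, from 304 and 395 counts, and 0.472, 0.114 and 1.10 CPM in the OA-AP pancreas, from 9, 2 and 21 counts. It showed the largest difference of the members that passed the filter: the control mean of 32.7 ± 9.40 CPM (SD, n = 2) was 56.4-fold the OA-AP mean of 0.562 ± 0.498 CPM (SD, n = 3), and the log2 fold change was −5.82 (SE 0.51). It was −6.77 without OA-AP replicate 3, −6.70 with the replicate number as a block and −5.11 with library totals alone, so its size is uncertain. In OA-AP replicate 2 its 2 counts were under the 3 counts that a 0 allows. An antisense gene, Gm17232, overlaps Tdh and had 6 counts in all pancreas libraries together. In adipose tissue Tdh had 6 counts in control replicate 2, the library with acinar counts, and 0 in the other 5 libraries, where 3 counts would be 0.102 to 0.156 CPM. Gcat (ENSMUSG00000006378, chr15:79030874-79038353) measured 38.2 and 41.0 CPM in the control and 11.1, 16.1 and 16.6 CPM in the OA-AP pancreas libraries. The groups were separate, at 39.6 ± 1.98 CPM (SD, n = 2) in control and 14.6 ± 3.06 CPM (SD, n = 3) in OA-AP mice, and its log2 fold change of −1.44 (SE 0.19) was the smallest of the 8 lower members. A further gene model with the symbol Gcat lies over this one and had 0 counts in the pancreas, so reads that both models share could have been lost and the Gcat levels are uncertain. Adipose Gcat lay at 10.2, 10.1 and 8.54 CPM in the control and 9.43, 5.19 and 5.00 CPM in the OA-AP libraries. OA-AP replicate 1 lay among the controls and the other OA-AP libraries below them, so the log2 fold change was −0.56 (SE 0.26), and −0.91 without OA-AP replicate 1.

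Proline is made from glutamate by Aldh18a1, which forms pyrroline carboxylate, and by Pycr1, the mitochondrial reductase of the last step. Aldh18a1 (ENSMUSG00000025007, chr19:40550257-40588463) stood at 53.9 and 55.1 CPM in the control and 11.4, 13.8 and 9.78 CPM in the OA-AP pancreas libraries. The controls were nearly equal and 4.67-fold above OA-AP by their means, 54.5 ± 0.884 CPM (SD, n = 2) in control and 11.7 ± 2.05 CPM (SD, n = 3) in OA-AP mice, a log2 fold change of −2.22 (SE 0.17). In adipose tissue the direction was the reverse, with 10.6, 13.9 and 11.4 CPM in the control and 26.6, 30.4 and 27.9 CPM in the OA-AP libraries. Every OA-AP library was above every control, at a log2 fold change of 1.25 (SE 0.13) and means of 11.9 ± 1.71 CPM (SD, n = 3) in control and 28.3 ± 1.93 CPM (SD, n = 3) in OA-AP mice. A processed pseudogene, Gm15801, lies inside Aldh18a1 and had 2 counts in the pancreas and 27 in adipose tissue over all libraries. Pycr1 (ENSMUSG00000025140, chr11:120635712-120643769) had 53.0 and 56.3 CPM in the control and 3.62, 5.09 and 4.81 CPM in the OA-AP pancreas libraries. It was low in all 3 OA-AP libraries, with means of 54.7 ± 2.34 CPM (SD, n = 2) in control and 4.51 ± 0.780 CPM (SD, n = 3) in OA-AP mice and a log2 fold change of −3.60 (SE 0.17). Adipose Pycr1 was scarce, at 3.51, 2.71 and 3.10 CPM in the control and 1.45, 1.92 and 3.43 CPM in the OA-AP libraries. OA-AP replicate 3 lay among the controls, and the log2 fold change was −0.45 (SE 0.33).

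Aldh1l2 (ENSMUSG00000020256, chr10:83487450-83534140) oxidizes formyltetrahydrofolate to carbon dioxide in mitochondria and yields NADPH. It was measured at 88.3 and 92.8 CPM in the control and 3.04, 4.41 and 5.18 CPM in the OA-AP pancreas libraries. The groups lay 21.5-fold apart by their means, 90.6 ± 3.20 CPM (SD, n = 2) in control and 4.21 ± 1.08 CPM (SD, n = 3) in OA-AP mice, a log2 fold change of −4.43 (SE 0.21). Its end overlaps D10Wsu102e, a gene on the other strand with 1119 counts in the pancreas and 4117 in adipose tissue, and without a stated strand setting reads of the shared stretch cannot be told apart. In adipose tissue Aldh1l2 had 1.44, 2.16 and 1.5 CPM in the control and 1.55, 0.817 and 1.77 CPM in the OA-AP libraries. The groups overlapped, at a log2 fold change of −0.30 (SE 0.34).

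Levels of different genes were compared per kilobase (kb) of the deposited gene length. In the control pancreas Gatm was the highest at 153.9 ± 4.80 CPM per kb (SD, n = 2), then Gamt at 117.9 ± 11.6 and Gcat at 16.6 ± 0.829 CPM per kb, each separate from the next by every library. Pycr1 (13.9), Aldh18a1 (13.4), Tdh (12.5), Aldh1l2 (12.1) and Gcsh (11.9 CPM per kb) followed, and neighbours among these 5 overlapped. Amt lay below them at 1.71 CPM per kb, and Gldc at 0. In the OA-AP pancreas the order was Gatm at 32.0 ± 3.06 CPM per kb (SD, n = 3), Gcat at 6.12, Gamt at 5.00, Aldh18a1 at 2.87, Gcsh at 2.35, Amt at 1.5, Pycr1 at 1.15, Aldh1l2 at 0.561, Tdh at 0.215 and Gldc at 0.0330 CPM per kb. There Gatm was separate from Gcat, Gamt from Aldh18a1 and Pycr1 from Aldh1l2, and the other neighbours overlapped. Control adipose tissue had another order, with Gcsh first at 33.8 ± 1.80 CPM per kb (SD, n = 3), Gamt at 12.7, Gcat at 4.03, Amt at 3.28, Gatm at 3.01, Aldh18a1 at 2.93, Pycr1 at 0.789, Aldh1l2 at 0.227, Gldc at 0.226 and Tdh at 0.0324 CPM per kb. Neighbours among Gcat, Amt, Gatm and Aldh18a1 overlapped, as did Aldh1l2 and Gldc, and the other neighbours were separate. In OA-AP adipose tissue Gcsh (40.7 CPM per kb) was again first and separate from Aldh18a1 at 6.95, which overlapped Gamt at 6.66. Gcat (2.74) overlapped Amt (2.50 CPM per kb), Gldc (0.996) overlapped Gatm (0.976), and Gatm overlapped Pycr1 (0.577 CPM per kb), with Aldh1l2 at 0.184 and Tdh at 0 below them and separate.

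The acinar markers moved with the pancreas members. Of 31 acinar markers tested, 21 fell and 1, Cuzd1, rose, with a median log2 fold change of −1.23, and with library totals alone 11 fell and 2 rose. Summed acinar markers averaged 73.8% ± 1.34 of the counts in control mice (SD, n = 2) and 57.2% ± 1.33 in OA-AP mice (SD, n = 3). Relative to the summed counts of this list, a scale chosen after the data were seen, the same 8 members were still lower in all 3 OA-AP libraries than in both controls. On this scale the control means were 28.3-fold the OA-AP means for Tdh, 11.2-fold for Gamt, 10.3-fold for Aldh1l2 and 5.78-fold for Pycr1. They were 2.37-fold for Gcsh, 2.28-fold for Gatm, 2.20-fold for Aldh18a1 and 1.30-fold for Gcat. Amt was then 1.87-fold higher in OA-AP, with overlap. Acinar transcription factors fell as well: Rbpjl, Bhlha15 and Gata4 were lower among 5 tested, and the list took 0.0851% and 0.0792% of the control counts and 0.0263%, 0.0341% and 0.0215% of the OA-AP counts. Its most abundant gene, Rbpjl, had 725 and 733 CPM in the control and 84.3, 134.7 and 97.0 CPM in the OA-AP libraries. Gata4 was not called with library totals alone (−0.10).

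Markers of other cells also differed between the groups. In the pancreas 3 of 6 duct markers fell (Muc1 and Tff2 among them), 2 of 8 islet markers rose (Iapp and Chga), 2 of 4 adipocyte markers rose (Plin4 and Lipe), and among 8 macrophage and 5 endothelial markers Csf1r and Kdr fell. Of the other macrophage markers 3 were higher in each OA-AP library, not called, and the share of that list in the pancreas counts was 0.00644% and 0.00280% in the control and 0.00830%, 0.00820% and 0.00717% in the OA-AP libraries, with Lyz2 the most abundant. The endothelial share was 0.00448% and 0.00505% against 0.00690%, 0.00603% and 0.00726%, with Pecam1 the most abundant. In CPM, after TMM scaling, the groups overlapped for the sums of both lists. Neutrophil markers took 7.5e-05% and 0.000132% of the control and 0.00165%, 0.000402% and 0.0105% of the OA-AP counts in the pancreas, with S100a9 the most abundant. All 5 tested were higher in each OA-AP library, yet edgeR called 0 of them, with 1 (Cxcr2) at an unadjusted p under 0.05, while DESeq2 called 5. No fibroblast marker of 6 and no mesothelial marker of 4 was called by edgeR in the pancreas, 1 of each list had an unadjusted p under 0.05, and DESeq2 called 0 and 1 of them. In adipose tissue 5 of 6 neutrophil markers rose (S100a8, S100a9, Retnlg, Cxcr2 and Csf3r) and Elane fell, and the list went from 0.000991%, 0.00150% and 0.00165% of the control counts to 0.0146%, 0.0140% and 0.0170% of the OA-AP counts. Of 6 fibroblast markers 5 fell there (Col1a1, Col1a2, Col3a1, Dcn and Lum), from 0.413%, 0.341% and 0.436% to 0.178%, 0.231% and 0.187% of the counts, with Dcn the most abundant. Of 6 lymphocyte markers 4 fell, Cd3e, Cd79a and Ms4a1 among them, and the list went from 0.000921%, 0.00400% and 0.00120% to 0.000187%, 0.000341% and 0.000411% of the counts, with Cd79a the most abundant and control replicate 2 the highest. Among 8 macrophage markers Cd68, Mrc1 and Cd163 rose and Csf1r fell, and among 10 adipocyte markers Lep rose and Plin1 and Cfd fell. Among 3 acinar transcription factors tested in adipose tissue Rbpjl fell, from 0.443, 5.59 and 0.647 to 0.104, 0.0481 and 0.202 CPM, with the control mean set mostly by replicate 2, the library with acinar counts, and without that library it did not pass the filter. No adipose call was made by edgeR among 4 acinar, 5 duct, 5 endothelial and 4 mesothelial markers, where 2, 0, 2 and 2 had an unadjusted p under 0.05 and DESeq2 called 0 in each list. Lymphocyte markers in the pancreas and islet markers in adipose tissue had too few counts to be tested. The markers named were picked after their values were seen because few genes of their list were called in that direction. Leaving out 1 library at a time, Cuzd1, Iapp, Chga, Plin4, Csf1r and Kdr lost the call in the pancreas at least once, as did Rbpjl, Cfd, Lep, Elane, Cd68, Cd3e, Cd79a, Ms4a1, Col1a1 and Lum in adipose tissue. With library totals alone, Csf1r (−0.46) and Kdr (−0.04) in the pancreas and Cd68 (0.48) in adipose tissue were not called. Adipose Cd68 (0.63), Cd3e (−1.15) and Lum (−1.01) were not called with the replicate number as a block, nor Cd3e with DESeq2 (−1.16). The part of these cell types in the members' levels was not tested.

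Beyond the members, 78 other genes of these pathways were listed by role, of which 77 were in the tables and 65 were tested in the pancreas and 64 in adipose tissue. In the pancreas 10 rose and 19 fell, with a median log2 fold change of −0.24. With library totals alone 20 rose and 7 fell, and the median was 0.44. In adipose tissue 11 rose and 10 fell, with a median of 0.01, and 7 and 12 with library totals alone, with a median of −0.15. All adjusted p-values below are from edgeR. Calls lost or gained when 1 library was left out are given by the log2 fold change without it, and means are given ± SD over 2 control and 3 OA-AP libraries in the pancreas and 3 of each in adipose tissue, and some genes are named after their values were seen. Counts and medians cover all tested genes of a list, and not every called gene is named.

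Of the genes that make, convert or break down serine and glycine, 2 of 8 tested rose and 3 fell in the pancreas (median −0.69). Shmt2, the mitochondrial enzyme that turns serine into glycine, fell from 28.7 ± 0.677 to 14.3 ± 1.64 CPM, a log2 fold change of −1.0 (SE 0.15, adjusted p = 0.00198). Psph, the last step of serine synthesis, fell from 3.30 ± 0.546 to 0.786 ± 0.190 CPM, a change of −2.05 (SE 0.38, adjusted p = 0.00494) that was not called without control replicate 2 (−1.88). Sds, which breaks serine down, rose from 0.314 ± 0.162 to 1.45 ± 0.221 CPM at 2.15 (SE 0.55, adjusted p = 0.0192), and was not called without control replicate 1 (2.82), control replicate 2 (1.74) or OA-AP replicate 1 (2.05). Phgdh, the first step of serine synthesis, fell, at −0.62 (adjusted p = 0.0302), and Sdsl, a relative of Sds, rose, at 0.62 (adjusted p = 0.046). Phgdh was not called without control replicate 1 (−0.71), control replicate 2 (−0.52), OA-AP replicate 1 (−0.51) or OA-AP replicate 2 (−0.58), nor without a filter on low counts (−0.55). Sdsl was not called without control replicate 1 (0.55), control replicate 2 (0.69), OA-AP replicate 1 (0.61), OA-AP replicate 2 (0.67) or OA-AP replicate 3 (0.51), with DESeq2 (0.62), with its size factors (0.58) or with the replicate number as a block (0.56). In adipose tissue, where 7 were tested (median −0.19), Shmt2 rose from 17.0 ± 0.433 to 27.8 ± 1.76 CPM, at 0.71 (SE 0.09, adjusted p = 0.00198), and Phgdh fell from 340.0 ± 14.6 to 202 ± 40.0 CPM, at −0.75 (SE 0.16, adjusted p = 0.0103). With library totals alone adipose Shmt2 was under the fold minimum (0.56).

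Of 12 genes of folate metabolism tested in the pancreas, 1 rose and 4 fell (median −0.35). Ggh, which trims glutamates from folates, fell from 179 ± 18.1 to 44.4 ± 9.12 CPM, at −2.01 (SE 0.18, adjusted p = 0.000284). Mthfd2, the mitochondrial methylenetetrahydrofolate dehydrogenase, fell from 47.9 ± 4.29 to 23.0 ± 3.48 CPM, at −1.06 (SE 0.16, adjusted p = 0.00209). Fpgs, which adds glutamates to folates, fell from 22.5 ± 2.26 to 13.6 ± 0.0361 CPM, at −0.73 (SE 0.14, adjusted p = 0.00574), and was not called without control replicate 2 (−0.62). Aldh1l1, the cytosolic relative of Aldh1l2, rose at 1.62 (adjusted p = 0.0156) and was not called without control replicate 1 (1.58) or control replicate 2 (1.67). In adipose tissue 5 of 13 rose and no fall was called (median 0.17), 1 of the others having an unadjusted p under 0.05 in that direction and DESeq2 calling no fall. Mthfd1l, the mitochondrial formyltetrahydrofolate synthetase, rose from 2.72 ± 0.454 to 8.57 ± 0.948 CPM, at 1.66 (SE 0.19, adjusted p = 0.00133). Mthfd2 rose from 6.72 ± 1.80 to 18.5 ± 3.20 CPM, at 1.46 (SE 0.22, adjusted p = 0.00321), and Fpgs from 15.1 ± 0.848 to 29.6 ± 5.76 CPM, at 0.97 (SE 0.15, adjusted p = 0.00346). Aldh1l1, at 1.31 (adjusted p = 0.00665), and the thymidylate synthase Tyms, at 0.80 (adjusted p = 0.00677), were the others.

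Of 8 genes for the lipoyl and iron-sulfur cofactors of glycine cleavage, 1 was called in the pancreas (median 0.06). This was Iba57, an iron-sulfur cluster assembly factor, which rose from 2.44 ± 0.0675 to 8.17 ± 0.876 CPM, at 1.74 (SE 0.23, adjusted p = 0.00135). Dld, the dehydrogenase of the cleavage system, was at −0.12 (SE 0.16, adjusted p = 0.589) in the pancreas, where its sign turned with library totals alone (0.58), and at 0.00 (SE 0.15, adjusted p = 0.994) in adipose tissue. In adipose tissue edgeR called 0 of the 8 (median 0.07), with 0 at an unadjusted p under 0.05 and 0 by DESeq2.

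A further list held genes that use, carry or form glycine, or oxidize choline or betaine aldehyde. Of 10 tested in the pancreas, 1 rose and 3 fell (median −0.33). Slc6a9, a glycine transporter of the plasma membrane, rose from 83.6 ± 5.92 to 159 ± 2.94 CPM, at 0.93 (SE 0.12, adjusted p = 0.00133). Slc25a38, the mitochondrial glycine carrier, fell from 16.4 ± 0.690 to 7.83 ± 0.669 CPM, at −1.06 (SE 0.16, adjusted p = 0.00215). Pipox, which forms glycine from sarcosine, fell from 2.85 ± 0.0889 to 0.230 ± 0.165 CPM, at −3.57 (SE 0.55, adjusted p = 0.00225). The third that fell was Aldh7a1, a betaine aldehyde dehydrogenase, at −0.68 (adjusted p = 0.00466), not called without control replicate 2 (−0.60). In adipose tissue 2 of 9 fell (median −0.13). Chdh, which oxidizes choline, fell from 77.5 ± 17.1 to 20.9 ± 10.9 CPM, at −1.89 (SE 0.40, adjusted p = 0.0124), and was not called without a filter on low counts (−1.91). Slc6a9 fell there from 4.23 ± 0.745 to 2.46 ± 0.290 CPM, at −0.78 (SE 0.21, adjusted p = 0.0268), and was not called without control replicate 2 (−0.73), control replicate 3 (−0.65), OA-AP replicate 1 (−0.70) or OA-AP replicate 3 (−0.75), or with the replicate number as a block (−0.77).

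Genes of creatine use and transport fell in both tissues where they were called, 2 of 4 in the pancreas (median −1.39) and 3 of 4 in adipose tissue (median −1.0). Ckmt1, the mitochondrial creatine kinase, fell in the pancreas from 6.55 ± 1.74 to 1.71 ± 0.307 CPM, at −1.93 (SE 0.31, adjusted p = 0.00265), and Slc16a12, a creatine transporter, from 8.68 ± 1.12 to 1.54 ± 0.839 CPM, at −2.49 (SE 0.45, adjusted p = 0.00526). Both lost the call without control replicate 2, at −1.63 for Ckmt1 and −2.35 for Slc16a12. Slc6a8, which takes creatine up, had 8.92 and 6.78 CPM in the control and 11.5, 10.6 and 18.0 CPM in the OA-AP pancreas. It was thus higher in all 3 OA-AP libraries but not called, at 0.76 (SE 0.27, adjusted p = 0.0635), and it was called with library totals alone (1.45), without a filter on low counts (0.84) and without OA-AP replicate 2 (0.90). In adipose tissue Slc6a8 was not called, at 0.23 (SE 0.10, adjusted p = 0.111). Ckb, the cytosolic creatine kinase, fell there from 43.2 ± 10.2 to 17.6 ± 2.45 CPM, at −1.30 (SE 0.19, adjusted p = 0.00282). Adipose Ckmt1 fell from 2.37 ± 1.18 to 0.388 ± 0.337 CPM, at −2.61 (SE 0.68, adjusted p = 0.0234), and was not called without control replicate 1 (−2.44), control replicate 3 (−2.32) or OA-AP replicate 1 (−2.47). Adipose Slc16a12 fell from 32.9 ± 3.85 to 20.2 ± 5.12 CPM, at −0.70 (SE 0.19, adjusted p = 0.0256), and was not called without control replicate 1 (−0.69), control replicate 2 (−0.61), OA-AP replicate 1 (−0.67) or OA-AP replicate 2 (−0.54), or with the block (−0.72).

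The methyl donor cycle, which supplies S-adenosylmethionine to Gamt, had 3 of 11 genes higher and 3 lower in the pancreas (median −0.19). Cth, which splits cystathionine into cysteine, fell from 17.7 ± 0.767 to 1.09 ± 0.240 CPM, at −4.00 (SE 0.23, adjusted p = 5.22e-05). Mat1a, a methionine adenosyltransferase, rose from 79.2 ± 13.3 to 450.2 ± 112 CPM, at 2.51 (SE 0.24, adjusted p = 0.000404), and Ahcy, which clears S-adenosylhomocysteine, from 269.6 ± 18.4 to 654 ± 9.94 CPM, at 1.28 (SE 0.13, adjusted p = 0.000466). Mat2a, another methionine adenosyltransferase, rose at 1.19 (adjusted p = 0.00109). Mtr, the methionine synthase, fell at −1.45 (adjusted p = 0.00875) and Cbs, the cystathionine synthase, at −0.74 (adjusted p = 0.00712). Mtr was not called without control replicate 1 (−1.30) or control replicate 2 (−1.58), and Cbs not without control replicate 1 (−0.80) or control replicate 2 (−0.67). In adipose tissue 2 of 10 rose and 2 fell (median −0.05). Ahcy rose from 28.9 ± 5.46 to 72.4 ± 20.4 CPM, at 1.32 (SE 0.22, adjusted p = 0.00528), and Mtrr, which reactivates methionine synthase, from 13.4 ± 0.402 to 21.7 ± 1.44 CPM, at 0.70 (SE 0.10, adjusted p = 0.00267), though under the fold minimum with library totals alone (0.54). Cth fell from 7.30 ± 2.85 to 1.81 ± 0.720 CPM, at −2.01 (SE 0.39, adjusted p = 0.00844). Cbs fell at −0.61 (adjusted p = 0.0101) and was not called without control replicate 1 (−0.58) or OA-AP replicate 3 (−0.56).

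Other genes of proline and glutamate metabolism numbered 12 tested in the pancreas, of which 2 rose and 4 fell (median −0.31). Glul, the glutamine synthetase, rose from 25.5 ± 0.820 to 242 ± 34.0 CPM, at 3.24 (SE 0.17, adjusted p = 4.28e-05). Aldh4a1 and Prodh, the enzymes of proline breakdown, fell, Aldh4a1 from 10.2 ± 2.84 to 1.09 ± 0.513 CPM, at −3.21 (SE 0.39, adjusted p = 0.000902), and Prodh from 42.0 ± 8.04 to 17.8 ± 2.71 CPM, at −1.24 (SE 0.18, adjusted p = 0.00191). P4ha2, a collagen prolyl hydroxylase, rose at 2.04 (adjusted p = 0.00333), Oat, the ornithine aminotransferase, fell at −1.17 (adjusted p = 0.00242), and the prolyl dipeptidase Pepd at −0.95 (adjusted p = 0.00739), not called without control replicate 1 (−0.81). In adipose tissue 3 of 13 rose and 2 fell (median 0.05). Slc36a1, a carrier of small amino acids, rose from 30.0 ± 0.313 to 51.1 ± 10.6 CPM, at 0.77 (SE 0.15, adjusted p = 0.00781). Glul rose at 0.73 (adjusted p = 0.0272) and was not called without control replicate 2 (0.59), control replicate 3 (0.77) or OA-AP replicate 1 (0.62), or with library totals alone (0.58). Pepd fell from 42.7 ± 7.76 to 26.7 ± 2.83 CPM, at −0.68 (SE 0.15, adjusted p = 0.0117), and was not called without control replicate 1 (−0.51). Prodh fell from 68.6 ± 32.4 to 27.2 ± 9.26 CPM, at −1.33 (SE 0.38, adjusted p = 0.0343), with control replicate 1 far above the other controls, and was not called without control replicate 1 (−0.86), OA-AP replicate 1 (−1.38) or OA-AP replicate 3 (−1.08), or without a filter on low counts (−1.36).

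With library totals alone, the pancreas falls of Phgdh and Aldh7a1 turned to 0.08 and 0.04. The falls of Shmt2 (−0.30), Mthfd2 (−0.35), Fpgs (−0.01), Slc25a38 (−0.34), Mtr (−0.74), Cbs (−0.02), Prodh (−0.50), Oat (−0.45) and Pepd (−0.25) were then not called. Those of Psph, Ggh, Pipox, Ckmt1, Slc16a12, Cth and Aldh4a1 were called under both scalings, as were the 10 rises.

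**Figure D2:**
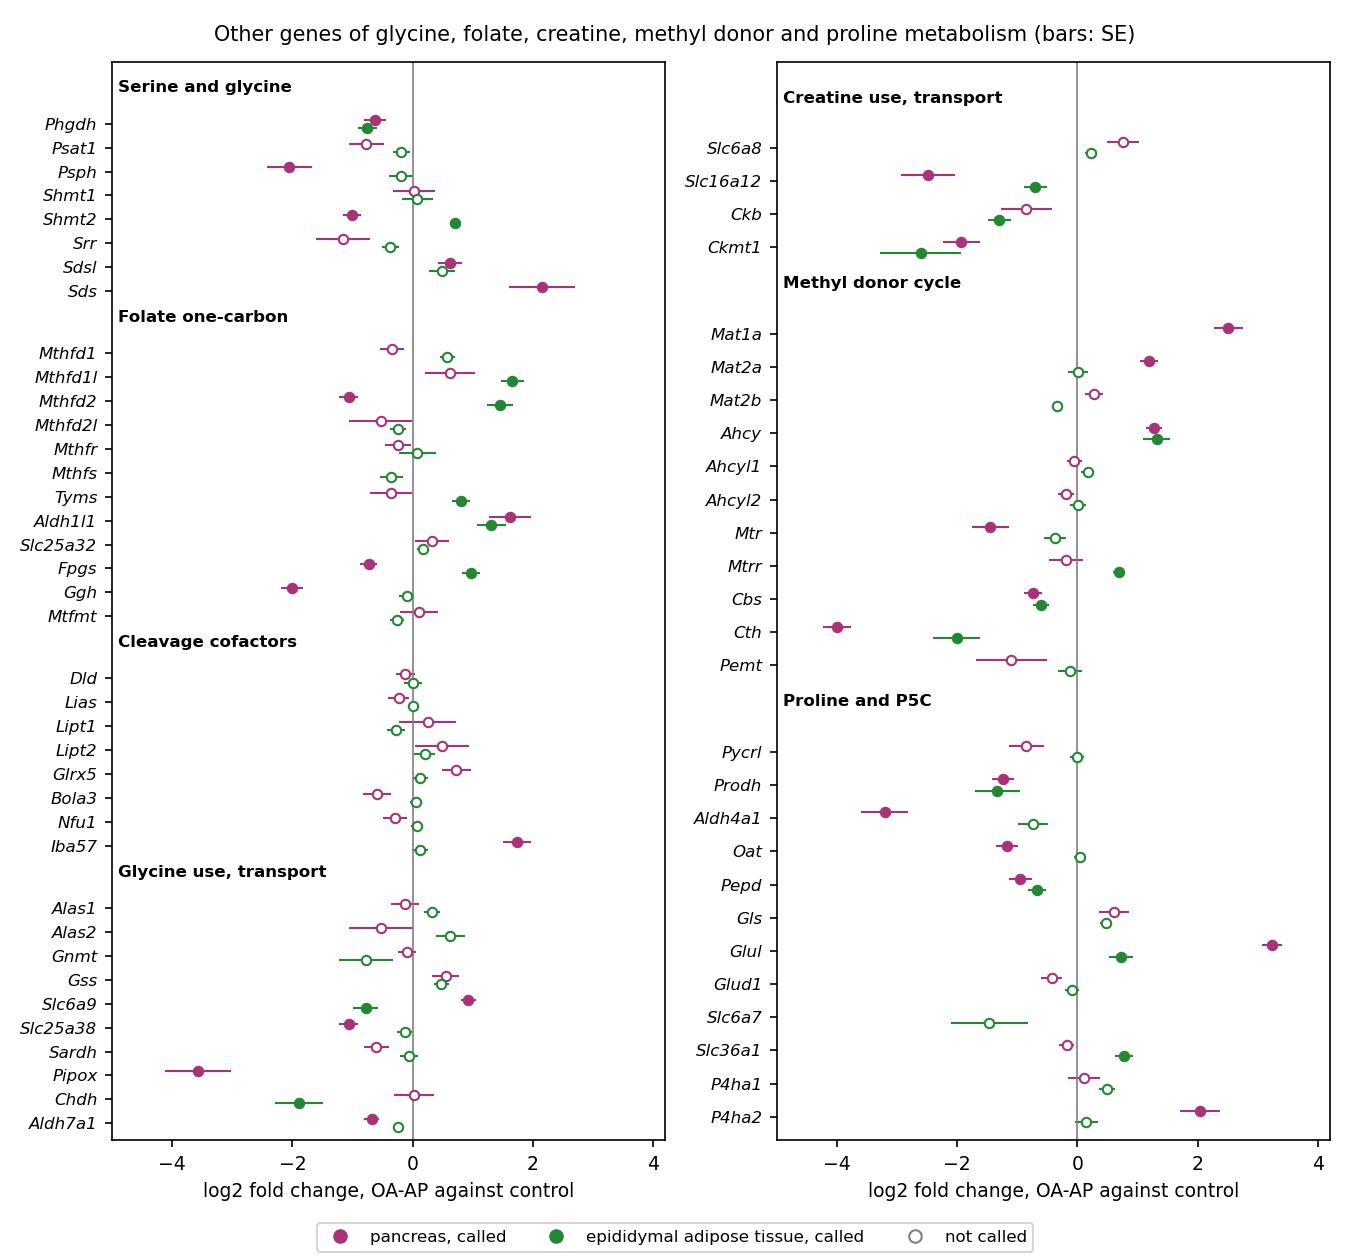
Log2 fold change of OA-AP against control for genes of 7 pathway lists, in the pancreas (purple) and in epididymal adipose tissue (green); filled points were called by edgeR, open points were not, and bars are standard errors. Cth lies farthest left in the pancreas, at −4.00, and Glul farthest right, at 3.24; with library totals alone the median of all tested genes moved by 0.71 in the pancreas, and Phgdh and Aldh7a1 changed direction.

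Genes of the amino acid response, through which cells that lack amino acids or have stress of the endoplasmic reticulum raise enzymes of amino acid synthesis, numbered 13 tested in each tissue. In the pancreas 3 rose and 3 fell (median 0.26), and with library totals alone 6 rose and 1 fell (median 0.94). Nupr1, a stress-induced chromatin protein, rose from 2015 ± 66.4 to 6352 ± 1548 CPM, at 1.66 (SE 0.23, adjusted p = 0.0014), and the transcription factor Cebpb from 4.88 ± 0.135 to 22.3 ± 7.35 CPM, at 2.19 (SE 0.30, adjusted p = 0.00157). Ddit3, a transcription factor of this response, fell from 7.19 ± 0.152 to 1.84 ± 0.484 CPM, at −1.96 (SE 0.29, adjusted p = 0.00206). Atf3, another such factor, had 0.343 and 0.0997 CPM in the control and 2.26, 0.973 and 8.26 CPM in the OA-AP pancreas, at 4.02 (SE 1.27, adjusted p = 0.0528), and was not called by edgeR but by DESeq2 and with library totals alone (4.64). The kinase gene Eif2ak3 rose at 1.18 (adjusted p = 0.00726) and was not called without control replicate 1 (1.12) or control replicate 2 (1.25). Atf5 fell at −0.70 (adjusted p = 0.0119) and Asns, the asparagine synthetase, at −0.64 (adjusted p = 0.0164), and both changed sign with library totals alone, to 0.02 and 0.06. Atf5 was not called without control replicate 1 (−0.67) or control replicate 2 (−0.72), or with the block (−0.58), nor Asns without control replicate 1 (−0.70), control replicate 2 (−0.57) or OA-AP replicate 1 (−0.56), or without a filter on low counts (−0.57). Atf4, the factor at the centre of the response, had 93.5 and 98.9 CPM in the control and 83.8, 74.6 and 102 CPM in the OA-AP pancreas. The groups overlapped, at −0.15 (SE 0.16, adjusted p = 0.49), and the sign turned with library totals alone (0.56).

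In adipose tissue 4 of the 13 rose and 1 fell (median 0.22), and 3 and 1 with library totals alone (median 0.07). Ppp1r15a, a phosphatase subunit, rose from 21.6 ± 1.20 to 39.5 ± 1.05 CPM, at 0.87 (SE 0.09, adjusted p = 0.000757), and Cebpb from 37.2 ± 1.94 to 106 ± 20.4 CPM, at 1.51 (SE 0.15, adjusted p = 0.000814). Nupr1 rose at 2.28 (adjusted p = 0.00724). Atf4 rose from 105 ± 5.90 to 158 ± 5.93 CPM, at 0.59 (SE 0.09, adjusted p = 0.00326), just over the fold minimum, and lay under it with library totals alone (0.44), without a filter (0.57), with a minimum of 10 counts in every library (0.57) and without control replicate 3 (0.56) or OA-AP replicate 2 (0.57). Trib3, a pseudokinase, fell at −1.52 (adjusted p = 0.0217) and was not called without control replicate 2 (−1.25), control replicate 3 (−1.45), OA-AP replicate 1 (−1.33) or OA-AP replicate 3 (−1.38).

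The genes nearest to 3 members were sought among 11977 genes tested in both tissues, by the root mean square difference of log2 CPM centred within each tissue over the 11 libraries. Nearest to Gatm, the member with the highest level per kb in the control pancreas, were Cdkn1c (0.308), Sec16b (0.382) and Plagl1 (0.393). Nearest to Tdh, with the largest fall, were Aldh1l2 (0.817), Gamt (0.826) and Naip6 (0.884), all at a larger distance. Tdh did not pass the filter in adipose tissue and had 0 counts in most libraries there, so the prior count set that part of its profile. No member that passed the filter was higher in all OA-AP libraries of the pancreas. Amt, which overlapped between the groups and had the highest log2 fold change (−0.20), stood in for the largest rise, and its nearest genes were Slc38a6 (0.175), Endod1 (0.178) and Neurl1b (0.182).

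The promoters of the members were searched for 4 motifs on both strands. RefSeq promoters of the GRCm38.p6 build, 300 bases from 250 before the start of a gene to 50 after it, were available for 8 of the 10 members, but not for Tdh and Aldh1l2. Pathway and amino acid response genes were counted once each if any of their promoters held the motif. The share over all is of 32851 promoters from 27025 genes, so the 2 kinds of share are not directly comparable. The C/EBP-ATF response element TGATGNAA was present in 1 of 8 member promoters (Pycr1) and in 0 of 63 pathway genes. It was in 5 of 13 amino acid response genes (Asns, Atf3, Chac1, Nupr1 and Trib3) and in 4.0% of all promoters. The E-box CACGTG was present in 2 of 8 member promoters (Gcat and Aldh18a1), in 6 of 63 pathway genes and in 7.2% of all promoters. The D-box TTANNTAA was in 0 of 8, in 2 of 63 pathway genes and in 6.0% of all promoters. The NRF2 motif TGANNNNGC was in 5 of 8 (Gatm, Gamt, Amt, Gcat and Pycr1), in 32 of 63 pathway genes and in 41.3% of all promoters. No 2 matches overlapped in a member promoter. A match is a description of the letters and not a site of binding. The 3 promoters that hold the rarer motifs are printed 5′ to 3′ along the strand of the gene, with all matches to the 4 motifs in capitals. In Pycr1 (chr11:120643699-120643998, minus strand) the first capitals are the response element, 103 to 96 bases before the start, and the second the NRF2 motif. In Aldh18a1 (chr19:40588414-40588713, minus strand) the capitals are the E-box, 59 to 54 bases before the start. In Gcat (chr15:79030624-79030923, plus strand) they are a pair of NRF2 motifs and then the E-box.
Pycr1: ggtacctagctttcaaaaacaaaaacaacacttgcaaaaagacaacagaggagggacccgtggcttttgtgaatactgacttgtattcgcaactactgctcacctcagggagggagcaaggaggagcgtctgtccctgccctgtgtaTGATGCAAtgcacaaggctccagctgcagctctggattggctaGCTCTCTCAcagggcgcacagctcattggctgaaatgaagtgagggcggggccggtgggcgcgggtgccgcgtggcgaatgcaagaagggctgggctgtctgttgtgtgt
Aldh18a1: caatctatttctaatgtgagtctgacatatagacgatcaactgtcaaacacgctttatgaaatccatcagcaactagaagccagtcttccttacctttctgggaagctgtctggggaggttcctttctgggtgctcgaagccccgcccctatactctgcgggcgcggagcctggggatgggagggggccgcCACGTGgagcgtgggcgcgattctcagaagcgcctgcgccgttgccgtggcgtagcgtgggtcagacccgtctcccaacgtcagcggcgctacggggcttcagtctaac
Gcat: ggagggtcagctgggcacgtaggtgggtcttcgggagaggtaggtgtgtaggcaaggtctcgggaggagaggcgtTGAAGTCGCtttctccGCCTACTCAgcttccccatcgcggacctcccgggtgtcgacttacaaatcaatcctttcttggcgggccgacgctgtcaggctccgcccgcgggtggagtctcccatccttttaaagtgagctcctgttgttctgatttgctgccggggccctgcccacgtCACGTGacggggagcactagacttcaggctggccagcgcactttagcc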

How the data were processed

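RNA of 5 pancreas and 6 epididymal adipose libraries was grouped by the sample labels. The authors trimmed reads with Trim Galore (0.6.6), passed them through fastp (0.20.1), mapped them with STAR to GRCm38 and counted them with featureCounts (2.0.1), by the submitters' notes and the methods of the study. They deposited whole-number counts per gene, not normalized, and in the pancreas table a gene length (another kind of value), used here for levels per kb. The sources used here give neither annotation release nor strand setting.

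Each tissue was analysed apart in R (4.3.3) with edgeR (4.0.16): filterByExpr, TMM scaling, robust quasi-likelihood test and Benjamini-Hochberg adjustment over all tested genes. Genes were called at an adjusted p under 0.05 and at least 1.5-fold. Log2 CPM used a prior count of 2, and a count of 0 was taken to allow 3 counts. A standard error is the size of the log2 fold change over the root of the F statistic. Where a symbol had several IDs (Gcat and Ddit3 in the pancreas, Slc25a32 and Mat2a in adipose tissue), the ID with most counts was used. Pycr3 was in neither table under that symbol, though its older symbol Pycrl was. The tests were tested on simulated data. The simulation was not built with a shift of composition between the groups, so it does not bear on the choice of scaling.

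The members and gene lists were chosen with earlier results of these data known. Named genes were the 10 members, up to 3 called genes with the smallest p of each pathway list and tissue, always Dld, Shmt2, Slc6a8, Prodh and Atf4, the 3 genes nearest to 3 members and, after the values were seen, called genes of any list with 5 or fewer calls in a direction (some not reported here). Alternatives were DESeq2 (1.42.0), edgeR with DESeq2's size factors, library totals alone, TMM without acinar genes, no filter on low counts, at least 10 counts in every library, a fold minimum of 2 or none, the replicate number as a block (limma 3.58.1 loaded with edgeR), and each library left out in turn. Levels relative to acinar counts were added after the data were seen.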

Additional observations from a re-analysis of the deposited data

Results flagged for a closer look

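Several genes had log2 fold changes of opposite sign in the tissues, with every OA-AP library of the pancreas on one side of its controls and every OA-AP library of adipose tissue on the other side. The difference between the tissues was not tested for any of them, the members have no test, and Tyms, Slc36a1, Trib3 and Col3a1 were not called in the pancreas. Groups without overlap were common. They were found for 29.4% of all tested pancreas genes in the lower and 32.9% in the higher direction. In adipose tissue they were found for 26.0% and 26.4%. The share of all genes with opposite directions in the tissues was not computed, so nothing is read from how many are listed. Among the members, Gcsh had a log2 fold change of −2.34 in the pancreas and 0.27 in adipose tissue, where the groups overlapped with library totals alone (0.12). Aldh18a1 had −2.22 and 1.25. Among the folate and serine genes, Shmt2 had −1.0 and 0.71, and Mthfd2 −1.06 and 1.46. With library totals alone their pancreas values were −0.30 and −0.35, not called, and adipose Shmt2 (0.56) was under the fold minimum. Fpgs had −0.73, or −0.01 with overlap under library totals alone, and 0.97. Tyms had −0.36, which turned to 0.36 with overlap under library totals alone, and 0.80. The glycine transporter Slc6a9 went the other way, with 0.93 in the pancreas and −0.78 in adipose tissue. Slc36a1 had −0.18, which turned to 0.52 with library totals alone, and 0.77. Trib3 of the amino acid response had 1.03 and −1.52, and the fibroblast marker Col3a1 0.57 and −0.81.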

How the results depend on the processing

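The members are a description with no test, so their values under the alternatives support nothing. The number of adipose members past both thresholds in the lower direction was 2 (Gatm and Gamt), where 13.0% of all tested genes were called lower. It was 1 without a filter, 1 at a fold minimum of 2, 0 with the block and 1 to 2 with a library left out. These were not always the same genes. Without OA-AP replicate 1 only Gcat (−0.91) was counted, and without OA-AP replicate 2 Gamt (−1.17) and Amt (−0.67). With library totals alone, 6349 pancreas genes were called against 3834, pathway genes in the pancreas were 20 higher and 7 lower against 10 and 19, their median was 0.44 against −0.24, and 7 adipose pathway genes were higher against 11. A fold minimum of 2 gave 2464 pancreas and 2228 adipose genes against 3981, and 4 higher and 5 lower pathway genes in adipose tissue against 11 and 10. Phgdh (0.08), Aldh7a1 (0.04), Atf5 (0.02) and Asns (0.06) turned with library totals, whose construction shifts all pancreas genes. Besides these 4, named genes other than the members and Atf3, which was named later, lost the call in 194 rows and gained it in 3, all of Slc6a8. Of the other rows, 2550 kept their call or stayed within their spread or 1.5-fold, and 194 list counts, levels and member values moved further. The cause of the other changes was not tested.

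Leaving out each library gave 1495 to 4265 pancreas and 2865 to 4476 adipose genes, 7 to 12 higher and 10 to 23 lower pancreas pathway genes, and 10 to 12 higher and 5 to 10 lower adipose pathway genes. Without 1 pancreas control the lone control is assumed to vary like the other group. The replicate number as a block gave 4099 pancreas and 3477 adipose genes. Deviations of same-numbered libraries from their group means had r of 0.001 and −0.041 in the pancreas and −0.006, 0.056 and −0.163 in adipose tissue. Differently numbered adipose libraries reached −0.25 and 0.293. In groups of 2 or 3 libraries these deviations depend on each other, so whether the numbers pair samples cannot be decided from them. The smallest chi-square between replicates, per degree of freedom, was 6.91, above counting noise. With 2 pancreas controls the spread of that group is poorly known.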
